A study of Mus musculus with 2 samples.

Results

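Late-only peaks in gene deserts are stretches of open chromatin that the 6-month library (M6) of mouse prostate tumor cells listed as peaks and the 2-week library (W2) did not, far from every protein-coding gene. An M6 peak was taken when it overlapped no W2 peak, overlapped no protein-coding gene body of mm10, and had its summit over 50 kb from the nearest end of a protein-coding gene. On chromosomes 1 to 19, X and Y, 2863 peaks met the rule, leaving out 2 stretches of chromosome 4. They were 12.7% (95% interval 12.3 to 13.1%) of the 22570 M6 peaks and 15.9% (15.4 to 16.4%) of the 18018 M6 peaks without a W2 counterpart. Because the peaks were selected on the 2 peak lists, their absence from W2 and their distance from genes are the selection itself and not results. The stretches left out of chromosome 4 held 78 further peaks that met the other conditions.

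The assay was ATAC-seq, in which a transposase cuts and tags open DNA. It was run on tumor cells from the prostate of C57BL/6 mice in a series on progression to neuroendocrine prostate cancer (NEPC). Both groups received tamoxifen: W2 for 2 weeks, called the early stage, and M6 for 6 months, called the late stage. The sources used here do not give the alleles or transgene on which tamoxifen acted, the age of the mice, any pooling of animals, or a culture step. With 1 library for each stage there is no replicate check and no test. Exact 95% intervals (binomial for shares, Poisson for counts) cover counting error only. Time and library cannot be told apart, nor can more cells with an open site and a more open site per cell.

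Gene deserts are long stretches without protein-coding genes. Many hold distal enhancers, short elements bound by transcription factors that act on a promoter over long distances by looping, and the deserts beside developmental regulators are known to be rich in them. NEPC is a prostate cancer that has lost much of its luminal program and expresses neural and endocrine genes, and forkhead, SOX, POU and proneural bHLH factors are known for roles in it. A peak in a desert marks open DNA and does not name the gene that it serves, so the genes below are neighbours by position.

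Sequences are shown first for a run of late-only desert peaks over microRNA hairpins, since these share an annotated gene family. Within 1 desert of chromosome 7, between Gm51483 and Ndn, 5 late-only peaks covered hairpins of the Mir344 family in whole or in part. MicroRNAs are short RNAs that pair with messenger RNAs mainly through the seed, bases 2 to 8 of the mature form. The mature forms of those 5 hairpins are given from RefSeq (GRCm38.p6, the assembly that mm10 names), 5′ to 3′ with the seed in capitals. Mir344 and Mir344-2 give the same mature pair.
mmu-miR-344-3p: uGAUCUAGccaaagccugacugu
mmu-miR-344c-3p: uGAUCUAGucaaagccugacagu
mmu-miR-344g-3p: cAGGCUCUagccaggggcuuga
mmu-miR-344i: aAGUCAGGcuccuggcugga
mmu-miR-344-5p: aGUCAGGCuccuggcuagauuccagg
mmu-miR-344c-5p: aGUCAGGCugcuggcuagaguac
mmu-miR-344g-5p: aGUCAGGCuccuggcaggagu

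Hairpins of the same family without a peak carried other 3p seeds, of which the most frequent is shown for comparison, in capitals.
mmu-miR-344d-3p: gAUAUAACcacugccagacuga
mmu-miR-344e-3p: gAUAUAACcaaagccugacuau

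A second set shows the start windows of long non-coding RNAs (lncRNAs, transcripts with no known protein) that held the summit of a late-only desert peak, 250 bases before to 50 bases after the start, from RefSeq (GRCm38.p6). The 4 distinct peaks with the highest −log10 q are shown, with the window inside the group of peaks beside Inhbb as a further example. In all, 16 motifs were searched on both strands. Capitals mark the matches in these windows: the AP-1 motif TGANTCA, the E-box CAGCTG and the forkhead motif TGTTTAC.
A530053G22Rik, chr6:60403658-60403957, strand -: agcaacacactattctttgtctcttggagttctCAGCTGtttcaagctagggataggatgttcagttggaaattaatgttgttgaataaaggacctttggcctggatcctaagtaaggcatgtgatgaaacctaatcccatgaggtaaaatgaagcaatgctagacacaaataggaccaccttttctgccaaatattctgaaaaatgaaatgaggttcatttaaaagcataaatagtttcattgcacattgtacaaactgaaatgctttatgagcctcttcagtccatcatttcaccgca
Gm34820, chr15:37135697-37135996, strand +: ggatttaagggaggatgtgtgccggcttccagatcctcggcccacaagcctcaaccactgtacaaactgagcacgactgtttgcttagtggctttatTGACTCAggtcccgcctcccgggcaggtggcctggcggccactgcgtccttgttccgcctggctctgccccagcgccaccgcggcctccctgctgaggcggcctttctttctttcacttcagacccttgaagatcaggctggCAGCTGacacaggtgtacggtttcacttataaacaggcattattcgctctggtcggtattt
5330434G04Rik, chrX:105391705-105392004, strand -: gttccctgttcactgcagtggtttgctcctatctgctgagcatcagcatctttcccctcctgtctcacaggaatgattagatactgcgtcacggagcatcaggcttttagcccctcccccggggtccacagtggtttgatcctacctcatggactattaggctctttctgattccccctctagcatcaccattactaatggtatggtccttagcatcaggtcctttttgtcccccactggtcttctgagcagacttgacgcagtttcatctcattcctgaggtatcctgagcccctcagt
A330076H08Rik, chr7:61982306-61982605, strand -: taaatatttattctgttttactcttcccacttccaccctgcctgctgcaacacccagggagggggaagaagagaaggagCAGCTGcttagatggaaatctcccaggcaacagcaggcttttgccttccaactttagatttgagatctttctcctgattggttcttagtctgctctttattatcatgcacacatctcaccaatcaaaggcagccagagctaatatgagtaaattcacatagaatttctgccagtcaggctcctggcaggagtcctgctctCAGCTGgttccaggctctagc
Gm33388, chr1:119305493-119305792, strand +: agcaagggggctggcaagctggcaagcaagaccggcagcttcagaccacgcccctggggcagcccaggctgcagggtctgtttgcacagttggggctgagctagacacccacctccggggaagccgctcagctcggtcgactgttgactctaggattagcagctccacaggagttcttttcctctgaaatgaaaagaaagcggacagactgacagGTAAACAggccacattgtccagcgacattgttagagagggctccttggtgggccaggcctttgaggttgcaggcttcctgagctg

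In the whole series, W2 held 5735 and M6 22570 peaks on these chromosomes, a ratio of 3.94. For each peak the number of tags over the summit (pileup) and the local background in tags were recovered from the deposited statistics, with a whole-number pileup for 100% of the peaks. Read numbers are not stated in the sources used here. The lowest background, which stands for genome-wide depth, was 2.96 tags in W2 and 2.65 in M6. The lowest listed pileup was 12 tags in W2 and 10 in M6, so a place outside the W2 list may still have held some W2 tags. By this measure 34 late-only desert peaks (1.19%) had fewer tags than any W2 peak.

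The M6 list exceeded the W2 list by more in deserts than at the other 3 places. W2 held 296 desert peaks and M6 held 3018, a ratio of 10.2. The ratio was 6.06 in gene bodies, 4.79 between genes within 50 kb of one, and 2.40 within 1 kb of gene ends. Deserts thus held 5.16% (4.60 to 5.77%) of the W2 list and 13.4% (12.9 to 13.8%) of the M6 list. Of the desert M6 peaks, 94.9% (94.0 to 95.6%) had no W2 counterpart, where 79.8% of all M6 peaks had none. The share was 89.5% (88.4 to 90.5%) between genes nearby, 89.7% (89.0 to 90.4%) in gene bodies and 60.9% (59.8 to 61.9%) at gene ends. The lists also differed the other way. Of the 296 W2 desert peaks, 141 (47.6%, 41.8 to 53.5%) had no M6 counterpart. That share was 19.5% of all W2 peaks and 5.18% of those at gene ends. These W2 shares were not matched for strength, and a loss of open chromatin was not tested.

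Weak peaks rarely had a counterpart anywhere, so places were set side by side within 10 equal classes of the M6 list ordered by −log10 q. In the weakest class, 98.1% of desert peaks lacked a counterpart, as did 94.9% of gene-end peaks. In the strongest class (−log10 q of 16.5 to 98.5), 147 of 185 desert peaks (79.5%, 72.9 to 85.0%) lacked one. The corresponding share was 56.8% between genes nearby, 57.0% in gene bodies and 9.92% at gene ends. The strongest class is open at its upper end, so strength within it can differ between places, and these shares describe the lists that selected the peaks.

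**Figure D1:**
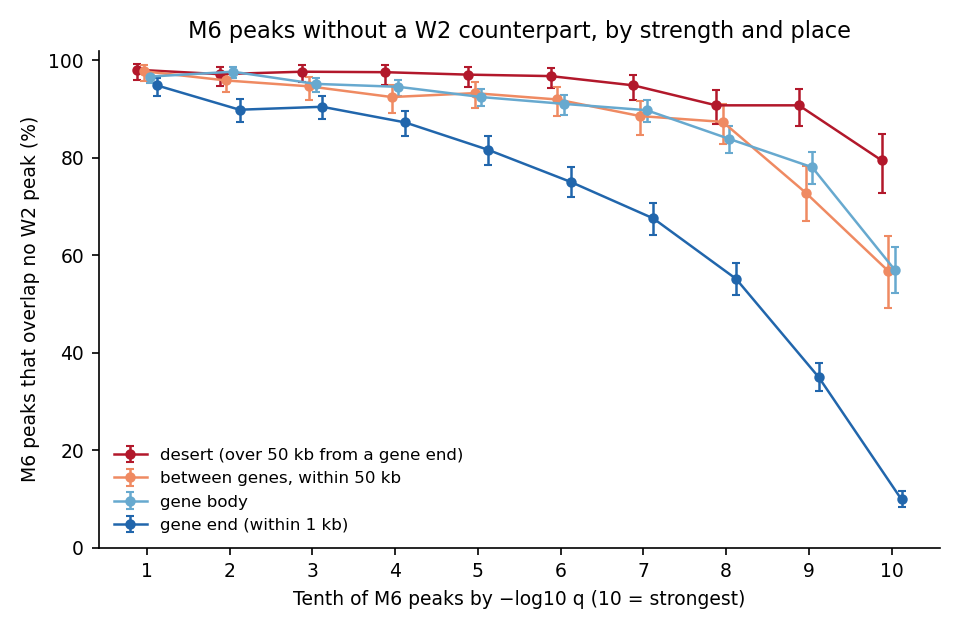
Share of M6 peaks that overlap no W2 peak (y axis, percent) by class of −log10 q (x axis, 10 equal classes, 10 strongest), for 4 places; points are shares and bars exact 95% binomial intervals. The desert line falls from 98.1% in the weakest to 79.5% in the strongest class, and the gene-end line from 94.9% to 9.92%.

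The late-only desert peaks were narrow and mostly weak. Their −log10 q, from the authors' peak caller, ran from 1.51 to 40.3 with a median of 6.16, and their fold over local background from 2.88 to 11.5 with a median of 4.74. Summit pileups ran from 10 to 65 tags (median 18), and widths from 200 to 1019 bp (median 307). Late-only peaks at gene ends had the same median −log10 q (6.16) with a higher median pileup (20.0 tags). The desert peaks reached that value over a lower background, at a median of 2.86 tags against 3.72 at gene ends, 3.34 in gene bodies and 3.16 between genes nearby. Of the late-only desert peaks, 36.2% lay at the lowest background of the library, against 9.90% at gene ends. There the −log10 q follows from the tag number alone: 13 tags gave 3.30, 17 gave 6.16 and 24 gave 12.1. Widths and −log10 q rose together across the peaks (Spearman rho 0.503, n = 2863 peaks of 1 library, a description). Only 24 peaks (0.838%) were 800 bp or wider, against 2.62% of late-only peaks at gene ends, 0.889% in gene bodies and 0.506% between genes nearby.

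The 155 desert M6 peaks with a W2 counterpart were stronger, with a median −log10 q of 10.5, a median pileup of 26.0 tags and a median width of 405 bp. At these sites the median pileup was 20.0 tags in W2, and M6 was higher at 103 of the 155. The late-only peaks mostly did not lie beside early ones. Their median distance to the nearest W2 peak was 327 kb, 2365 (82.6%) lay over 100 kb from one, and 13 lay within 1 kb of one.

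The strongest late-only desert peak lay on chromosome 10 (chr10:121205947-121206663), between Wif1, a secreted Wnt inhibitor, and Tbc1d30, a GTPase-activating protein. It had 65 tags over a background of 5.52 (−log10 q 40.3), with its summit 57.5 kb from Tbc1d30 and its edge 170 kb from the nearest W2 peak. The next lay between Gadd45g, a stress and differentiation gene, and Diras2, a small Ras-like GTPase (chr13:52339084-52339642, 55 tags, −log10 q 37.3). The peak between Thap1 and Zfp703, a zinc-finger gene known from luminal breast cancer, had 59 tags (chr8:26763152-26763729, −log10 q 36.6) and belonged to a group of 5 peaks. Next came the peak 253 kb from Basp1, a growth cone protein (chr15:25110157-25110726, 45 tags, −log10 q 31.8). All 4 lay over 100 kb from any W2 peak, and their 45 to 65 tags stood far above the lowest W2 pileup of 12.

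The remaining 6 of the top 10 ranged from 27.9 to 29.6 in −log10 q and from 45 to 50 tags. One lay 114 kb from Plpp4, a lipid phosphatase (chr7:129142080-129142869), beyond Sec23ip. The desert between Stpg2 and Pdha2, the latter a testis-expressed enzyme gene, held 2 of them (chr3:141112410-141113084 and chr3:139802923-139803467). Another lay between Gm40892 and Flrt2, a neural adhesion gene (chr12:93851037-93851561), with the nearest gene 956 kb away. A peak between Pou3f2, a neural POU factor known for a role in NEPC, and Mms22l (chr4:23636186-23636769) lay 860 kb from Mms22l. The last lay between Prmt6 and Amy2b (chr3:112699601-112700114), 3307 kb from the nearest W2 peak.

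Late-only peaks thinned slowly with distance from genes, and shared peaks quickly. Between autosomal genes, M6 peaks without a counterpart stood at 5.37 per Mb (5.06 to 5.70) from 1 to 10 kb from a gene end and at 4.74 (4.43 to 5.06) from 50 to 100 kb. Beyond 1000 kb they stood at 1.32 per Mb (1.07 to 1.62). Shared M6 peaks went from 0.779 per Mb (0.662 to 0.910) at 1 to 10 kb to 0.333 at 50 to 100 kb and 0.0281 (0.00341 to 0.102, 2 peaks) beyond 1000 kb. The median distance of the late-only desert peaks was 160 kb, against 112 kb for the shared desert peaks. The farthest lay 2200 kb from Pcdh17, a protocadherin gene of neurons (chr14:82243525-82243730, 18 tags, −log10 q 6.94).

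The threshold of 50 kb cut through this gradual change. Just inside were peaks 50032 bp from 1700113H08Rik (−log10 q 9.41), 50052 bp from Setd4 (10.2) and 50054 bp from Lca5 (3.30). Just outside were peaks 49976 bp from Zswim6 (4.67), 49947 bp from Mdga2 (15.8) and 49937 bp from Serp2 (6.85).

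**Figure D2:**
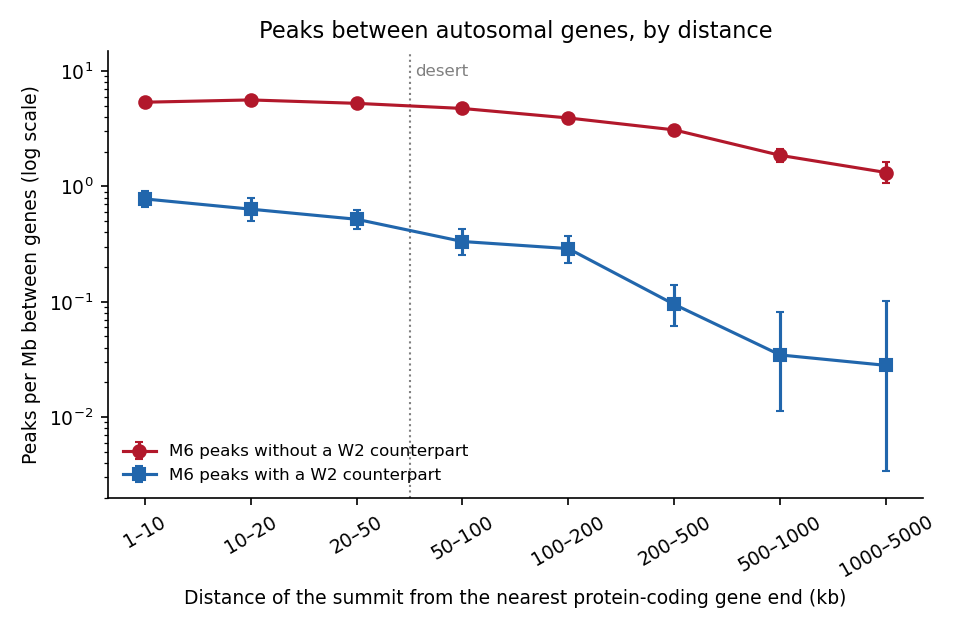
Peaks per Mb of intergenic sequence on the autosomes (y axis, log scale) by distance of the summit from the nearest protein-coding gene end (x axis, kb); red points are M6 peaks without and blue points M6 peaks with a W2 counterpart, with exact 95% Poisson intervals, and the dotted line marks 50 kb. The red line falls from 5.37 to 1.32 per Mb and the blue line from 0.779 to 0.0281.

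The peaks spread over many deserts. Counting each interval over 50 kb from both bordering genes as a desert, 1113 of 2965 deserts (37.5%) held at least 1 late-only peak. On the autosomes the density was 3.28 per Mb, from 2.24 on chromosome 7 to 4.59 on chromosome 13, against 0.336 per Mb for W2 desert peaks. Chromosome X stood at 0.359 per Mb (28 peaks in 77.9 Mb, W2 0.0128) and Y at 0.0153 (1 peak in 65.2 Mb). X held few late-only peaks at other places too, with 1.87% of those of all places against 1.01% of those in deserts. Copy number and mapping on X and Y were not measured. On the autosomes density fell with desert length, from 6.28 per Mb in deserts under 0.1 Mb to 2.12 in those over 1 Mb.

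**Figure D3:**
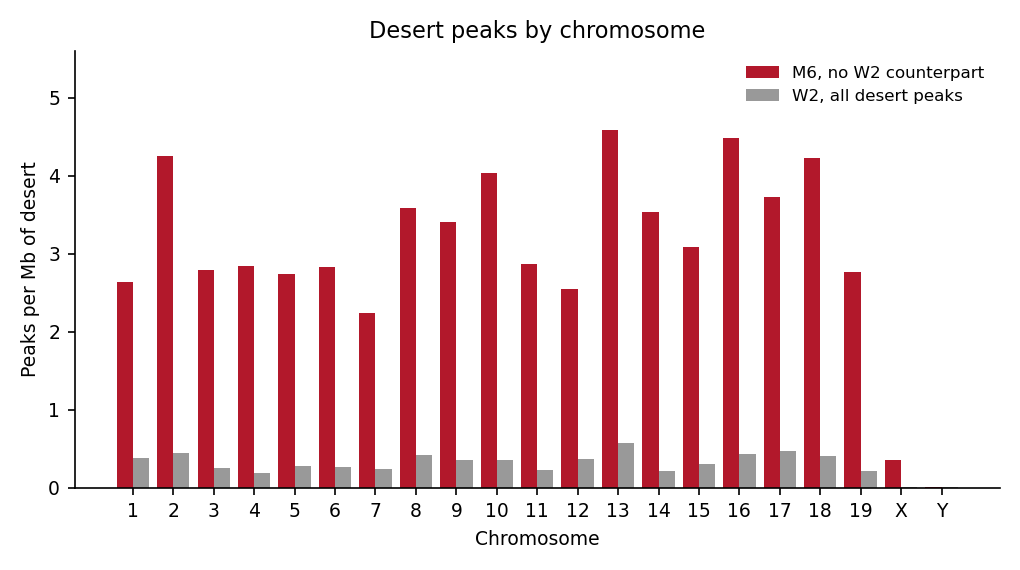
Late-only M6 peaks (red) and all W2 peaks (grey) per Mb of desert (y axis) on each chromosome (x axis). Autosomes hold 2.24 to 4.59 late-only peaks per Mb, while X holds 0.359 and Y 0.0153.

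Deserts with the most late-only peaks were mostly long. The desert between Celf4, a neuronal RNA-binding protein, and Pik3c3, a phosphoinositide kinase, held 24 in 4.41 Mb. That between Zeb2, a repressor of E-cadherin with roles in neural crest and glia, and Acvr2a, an activin receptor, held 19 in 3.60 Mb. Between Zfp608 and Gramd3 there were 16, and as many between Tmpo, a nuclear lamina protein, and Nedd1, a centrosome protein. Zfp608, with deserts on both sides, had 25 in all, the most of any gene. Among the 15 deserts with most peaks, those that were short and full stood out. The desert between Prok2 and Rybp held 11 in 0.402 Mb (27.4 per Mb), that between Klf5 and Klf12 11 in 0.453 Mb (24.3 per Mb), and that between Pax1 and Foxa2 10 in 0.568 Mb (17.6 per Mb). Like most deserts, none of these 3 held a W2 peak.

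The other genes with the most late-only peaks beside them were Usp25, a deubiquitinase (20), Klf12, a zinc-finger repressor (19), and Lrrc4c, a synaptic adhesion protein (18, of which 1 lay on a raised background of 15.7 tags). Tafa5, a secreted neural protein, had 17, Tenm4, a teneurin of neural wiring, and its neighbour Gm15501 had 15, and Epha7, an ephrin receptor, had 14. Long deserts made up these counts in part, with densities from 2.66 per Mb beside Epha7 to 15 beside Klf12.

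Many of the peaks stood in groups. Linking summits within 50 kb, 1188 of 2863 (41.5%, 39.7 to 43.3%) fell in 478 groups of at least 2, and 22 groups held 5 or more. No W2 peak lay within any of those 22 groups. W2 desert peaks were sparse, at 0.336 per Mb of autosomal desert, and these groups spanned only 39.5 to 129 kb each. The largest had 8 peaks over 115 kb between Prok2, a secreted signalling protein, and Rybp, a polycomb protein, with its strongest at chr6:99931515-99931959 (35 tags, −log10 q 14.7). The group of 6 between Cd24a and Qrsl1 had its strongest at chr10:43783300-43783880 (35 tags, −log10 q 20.4). The group of 6 beside Foxa2 peaked at −log10 q 14.4. The group of 6 between Obi1 and Rbm26 had its strongest at chr14:104652162-104652628 (33 tags, −log10 q 14.3). Groups of 6 also stood between Ets2 and Psmg1, Gli2 and Inhbb, and Gm15501 and Tenm4.

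**Figure D4:**
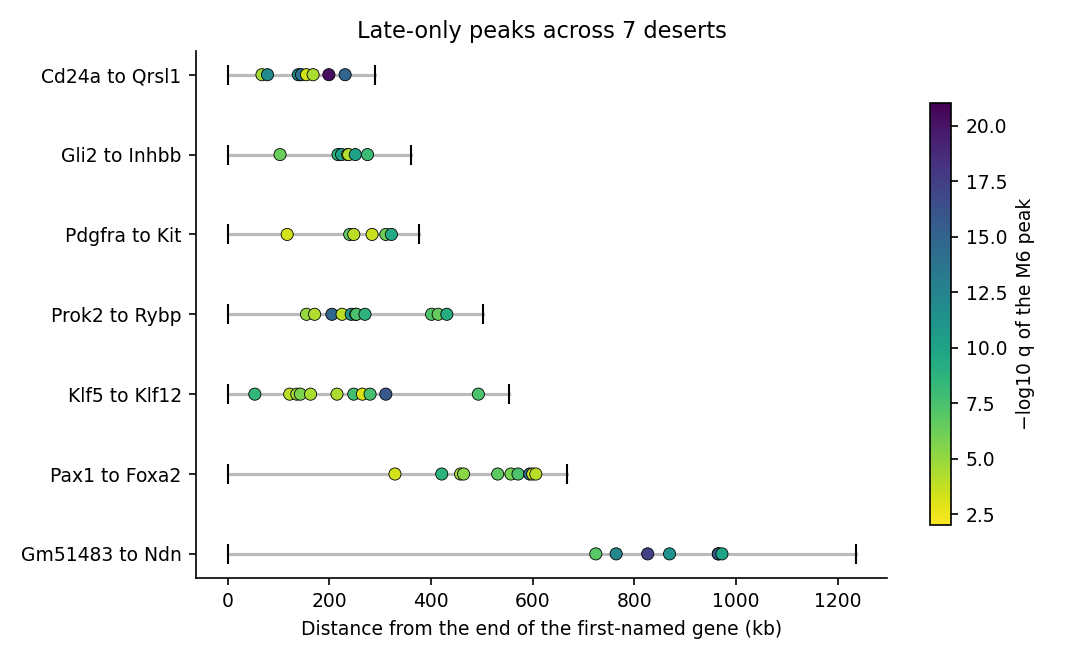
Late-only peaks (points, coloured by −log10 q) in 7 deserts, by distance of the summit from the end of the first-named gene (x axis, kb); black ticks mark the gene ends. All but the farthest of the 10 peaks between Pax1 and Foxa2 lie on the Foxa2 side, and the 7 between Gm51483 and Ndn lie on the Ndn side of a 1.13 Mb desert.

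For fixed gene lists, the number of late-only peaks beside the genes of a list was divided by the number that the lengths of the same deserts give, using the autosomal density of each length class. Of all 4742 protein-coding genes that border a desert, 1977 (41.7%) had at least 1 late-only peak beside them. A W2 peak stood beside 449 of the 4742. The intervals of the ratios count each peak as independent. Since 41.5% of the late-only desert peaks stood in groups, these intervals may be too narrow for every list. Luminal genes stood highest among the lists with more than 1 bordering gene. Of 7 bordering luminal genes 6 had a late-only peak, and their deserts held 31 where length gave 9.42, a ratio of 3.29 (2.24 to 4.67). Of 7 bordering basal genes all 7 had one, with a ratio of 2.73 (1.66 to 4.21) from 20 peaks. Without the desert holding the most peaks, the ratios were 2.70 (1.65 to 4.17) and 2.73 (1.49 to 4.58). With peaks below a −log10 q of 5 left out, the luminal ratio was 3.40 and the basal ratio 1.68, close to the neuroendocrine ratio of 1.62 under the same setting. The only housekeeping gene bordering a desert, Ywhaz, had 5 peaks in 0.155 Mb, a ratio of 5.14 (1.67 to 12.0) that rests on this 1 gene.

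Among the luminal genes, Klf5, a zinc-finger factor of epithelial cells, had 11 late-only peaks, from 53.4 to 493 kb away. Their −log10 q ran from 3.17 to 15.8 (median 5.78) and their pileups from 14 to 31 tags. Those from 280 to 493 kb away lay nearer to Klf12, among them the strongest, 311 kb from Klf5 and 241 kb from Klf12. Cd24a, which encodes a surface glycoprotein of luminal cells, had 8 peaks in 0.190 Mb. Their pileups, in order of distance from Cd24a, were 15, 27, 27, 33, 13, 15, 35 and 27 tags. Of these, 5 had at least 27 tags, and the median −log10 q was 12.0, against 6.16 for all late-only desert peaks. The peaks 155 to 231 kb from Cd24a lay nearer to Qrsl1, among them the strongest, 199 kb from Cd24a and 90.7 kb from Qrsl1. Gata3, a luminal transcription factor, had 5, Epcam and Grhl2, genes of epithelial adhesion and its control, had 3 each, and Ndrg1 had 1. The strongest peak beside Gata3 lay 1741 kb from it and nearer to Celf2. Among the basal genes, Jag1, a Notch ligand, had 6, Bcl11b 5 and Trp63, the defining basal factor, 3. The strongest peak beside Jag1 lay 931 kb from it and nearer to Btbd3.

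Of 23 neuroendocrine genes that border a desert, 17 had a late-only peak, and 82 peaks stood where length gave 50.5, a ratio of 1.62 (1.29 to 2.02). W2 had 2 peaks in the same deserts. Foxa2, a forkhead pioneer factor known in NEPC, and Sox11, a neural SOX factor, had 11 each. Mycn had 9, Kit, the receptor of stem cell factor, 8, Sox2 and Srrm4, a neural splicing factor, 6 each, and Ncam1, a neural adhesion molecule, and Prox1, a homeobox factor, 5 each. Syt1, Neurod1, Pcsk2, Ret, Nol4 and Rfx6 had 0.

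Beside Foxa2, the 10 late-only peaks on the Pax1 side lay 61.8 to 339 kb from the gene. From the nearest to the farthest, their pileups were 16, 13, 28, 22, 22, 19, 18, 15, 23 and 13 tags. The highest, at chr2:147968608-147969000, lay 74.0 kb from Foxa2 and had a −log10 q of 14.4. All 10 lay nearer to Foxa2 than to Pax1 except the farthest, which lay 329 kb from Pax1. A single peak with 18 tags lay on the other side, 195 kb away. Like most deserts, neither of these held a W2 peak.

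Beside Kit, 6 late-only peaks lay in the desert shared with Pdgfra, a related receptor gene of mesenchymal cells, and 2 in the desert shared with Kdr, the endothelial VEGF receptor gene. In the Pdgfra desert the pileups, from the nearest to Kit outward, were 26, 17, 18, 14, 20 and 13 tags. The nearest (chr5:75520273-75520781) lay 54.6 kb from Kit with a −log10 q of 9.53. The 2 peaks toward Kdr had 22 and 17 tags, and the stronger (chr5:75799745-75800326) had a −log10 q of 10.3. W2 had 0 peaks in both deserts, as in most deserts. The first 6 also count for Pdgfra and the other 2 for Kdr, genes of the fibroblast and endothelial lists.

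Srrm4 had its 6 peaks on 1 side, with pileups of 14, 16, 19, 26, 42 and 16 tags outward from 55.3 to 435 kb. The strongest (chr5:116828407-116829205) had a −log10 q of 19.8 and a width of 799 bp. Mycn had 7 peaks toward Cyria (18 to 32 tags) and 2 toward Ddx1 (20 and 22 tags). The nearest to Mycn was 58.3 kb away.

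Other lists of developmental regulators stood nearer to their lengths. SOX genes had a ratio of 1.46 (1.04 to 1.99), which was 1.38 (0.952 to 1.94) without the Sox11 desert. Epithelial-mesenchymal transition genes had 1.51 (1.08 to 2.05), with 19 peaks beside Zeb2 and 10 beside Cdh2, the N-cadherin gene. Without the Zeb2 desert the ratio was 1.13 (0.708 to 1.71). Proneural and other bHLH genes had 1.31 (0.842 to 1.96), and homeobox, PAX and ZIC genes 0.826 (0.648 to 1.04). Nuclear factor I and nuclear receptor genes had 0.828 (0.530 to 1.23), and growth factors and signal inhibitors 0.998 (0.750 to 1.30).

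Genes of neural function, which border many long deserts, did not stand above their lengths. Neural adhesion and guidance genes had 209 late-only peaks for a ratio of 1.00 (0.872 to 1.15), and ion channels 59 for 1.08 (0.823 to 1.39). Cadherins and protocadherins had 0.750 (0.612 to 0.909) and neurotransmitter receptors 0.602 (0.432 to 0.817). Raw counts beside these genes were nevertheless high, such as 18 for Lrrc4c and 14 for Pcdh17. Vomeronasal receptor genes, which detect pheromones, had 0 late-only peaks beside any of 74 bordering genes where length gave 18.7 (upper bound of the ratio 0.197). Olfactory receptor genes had 3 where length gave 7.37. W2 had 0 peaks in the deserts of both receptor lists, and mapping of reads there was not measured.

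Markers of other cell types rested on few peaks. Endothelial genes had 11 late-only peaks (ratio 1.60, 0.801 to 2.87), 6 of them beside Cdh5, the endothelial cadherin gene. Fibroblast genes had 12 (1.21, 0.623 to 2.11), of which 6 were those between Pdgfra and Kit. Without that desert the fibroblast ratio was 0.688 (0.252 to 1.5). Hepatocyte genes had 4 (0.680), cell cycle genes 3 (0.824), leukocyte genes 1 (0.470), and smooth muscle genes 0 where length gave 1.47. The part of other cell types in the late-only peaks was not tested.

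**Figure D5:**
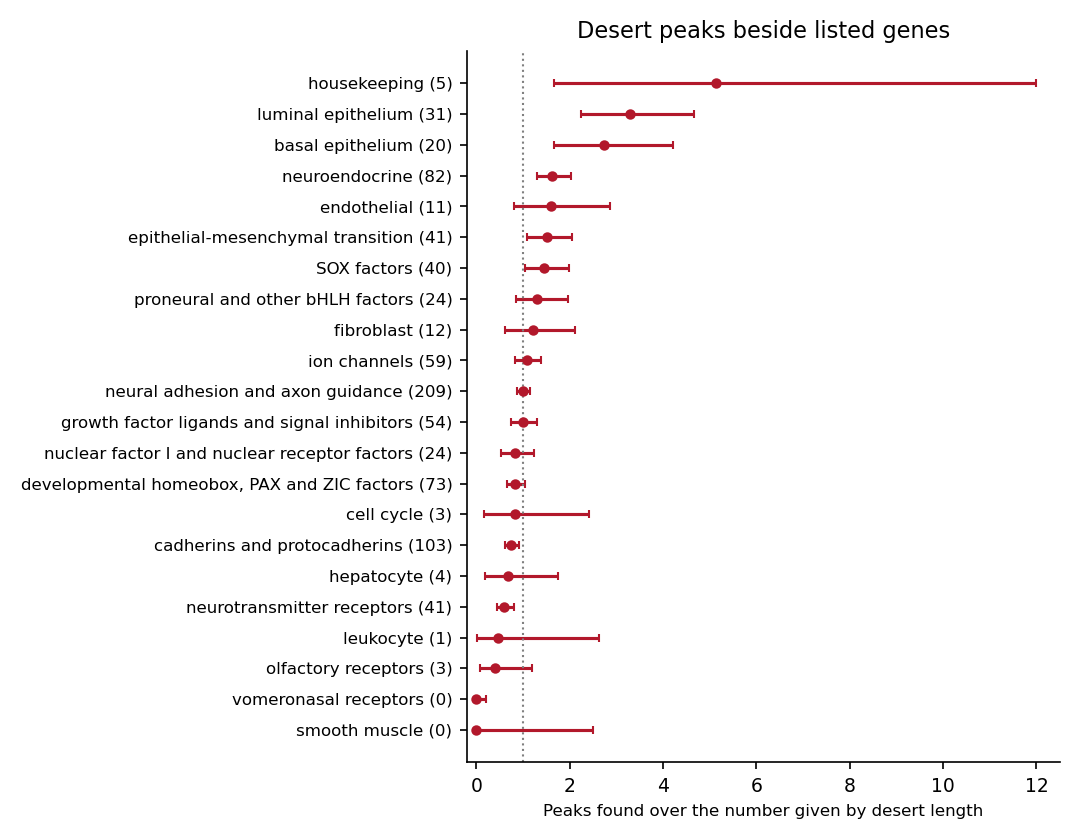
Late-only desert peaks beside the genes of each list, over the number that desert lengths give (x axis, ratio; dotted line at 1), with exact 95% Poisson intervals; brackets give the number of peaks. Luminal (3.29) and basal (2.73) genes lie to the right, neurotransmitter (0.602) and vomeronasal (0) receptors to the left. The intervals count each peak as independent.

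Deserts without protein-coding genes still held annotated non-coding genes. Of the late-only desert peaks, 586 (20.5%, 19 to 22.0%) lay in lncRNA bodies, which cover 10.1% of the desert length. Within 1 kb of lncRNA ends lay 184 (6.43%, 5.56 to 7.39%), against 1.37% of the length. This length includes X and Y, where 77.9 and 65.2 Mb of desert held 28 and 1 of the late-only peaks. The shares of length were not matched for chromosome or for distance from genes. Of the shared desert peaks, 27.7% (20.9 to 35.5%) lay in lncRNA bodies, an interval that overlaps that of the late-only peaks, and 12.9% (8.06 to 19.2%) at lncRNA ends. Counting every annotated gene in the rule, 876 late-only peaks would remain over 50 kb from any gene, so for most the word desert holds for protein-coding genes only.

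Of the 2801 lncRNAs with a start window in a desert, 50 (1.79%) were under a late-only desert peak. Such windows were covered by 1.75% of late-only and 6.45% of shared desert peaks. The first window printed, that of A530053G22Rik, lay under a peak with 32 tags. Gm34820 starts back to back with Gm41301, 97.0 kb from Grhl2, and both windows lay under 1 peak of 33 tags (−log10 q 14.6). The window of 5330434G04Rik on chromosome X lay under a peak of 25 tags, that of A330076H08Rik over the Mir344g hairpin under one of 23 tags, and that of Gm33388 beside Inhbb under one of 30 tags.

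The AP-1 motif TGANTCA stood in the start windows of 8 of the 33 lncRNAs that held a summit (24.2%, 11.1 to 42.3%), against 12.7% of the lncRNAs with a start window in a desert and 10.5% of all 9533. Gm41301 and Gm34820 share 1 peak and 1 such site, so the windows are not all independent. AP-1 had the highest share of the 16 motifs searched, and its interval includes the desert share of 12.7%. The E-box CAGCTG stood in 15.2% against 19.2% in deserts, the forkhead motif TGTTTAC in 3.03% against 5.39%, and the RUNX motif TGTGGTT in 12.1% against 7.32%. These windows are start sites and not the 2863 peaks themselves, whose sequences were not analysed here.

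The Mir344 peaks are taken up last. The desert between Gm51483 and Ndn, an imprinted gene of neurons, spans 1.13 Mb and held 7 late-only peaks and, like most deserts, 0 W2 peaks. Of its 13 Mir344 hairpins, 5 lay under late-only peaks. Among all 1005 miRNA hairpins 21 (2.09%) lay under a late-only M6 peak of any place. From the side of Gm51483 toward Ndn, the peak over Mir344c (chr7:61837332-61837635) had 18 tags and that over Mir344 (chr7:61877677-61878071) had 26. The peak over Mir344-2 (chr7:61939932-61940380) was the strongest with 33 tags (−log10 q 17.3). Those over Mir344g (chr7:61982236-61982625) and Mir344i (chr7:62085114-62085504) had 23 tags each, and the summit of the last lay within the hairpin.

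The remaining 2 late-only peaks of this desert, at chr7:62078182-62078417 (14 tags) and chr7:62078565-62078944 (32 tags), covered no hairpin. By seed, all 3 hairpins with the 3p seed GAUCUAG lay under peaks, and 0 of the 4 with AUAUAAC. Seed and position went together and were not separated. The 4 AUAUAAC hairpins lay from 61683124 to 61735602, and the 3 GAUCUAG hairpins nearer to Ndn, from 61837311 to 61940106. No hairpin on the Gm51483 side of Mir344c lay under a peak, whatever its seed. The 5p seed GUCAGGC was split, with 4 of 7 under peaks. Identity was taken as identical bases over the length of the longer hairpin, so a difference in length lowers it. Hairpins under peaks had 71 to 95 bases and the others 60 to 80. Pairs of hairpins with both under peaks were 57.9 to 82.1% identical by this measure (median 69.7%). Pairs with neither under a peak were as alike, at 57.5 to 100% (median 70.3%), and mixed pairs stood at 48.9 to 85.9% (median 60.9%). The treatment of reads with several positions is not stated in the sources used here, and a misplacement of reads among the family was not tested.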

How the data were processed

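Peak lists of ATAC-seq were analysed for 1 library per time point. The submitters' processing notes name mm10 with the tools Bowtie2, deepTools, SAMtools 1.4 and Trim Galore 0.5.0. For the peak caller, its threshold and the handling of duplicates and of reads with several positions, nothing is given in the sources used here. The fold deposited for each peak is a linear ratio of summit pileup to local background. The −log10 p and −log10 q were deposited with each peak by the authors. The score deposited beside them was not used. The deposited summit offset and the interval gave positions.

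Pileups and backgrounds were recovered from fold, taken as (pileup + 1)/(background + 1), and the Poisson −log10 p, within 0.001, and the step was tested on simulated data. Overlap meant at least 1 bp. Genes, miRNAs and start windows came from RefSeq tables (GRCm38.p6). Python 3.11.15, pandas 2.3.3, SciPy 1.17.1 and Biopython 1.88 were used. Intervals are Clopper-Pearson or exact Poisson.

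The peaks and gene lists were chosen with earlier results of these data known. The peaks named were the 10 strongest, the strongest of the 5 largest groups, those nearest to the threshold and the farthest. A few results beside particular genes, among them 1 of those groups, are not reported here. The genes named were those bordering these peaks, the 15 with most peaks, and list genes with at least 5. Genes with fewer, the order of tags beside Foxa2, Kit, Cd24a and Srrm4, and the Mir344 run were chosen after their values were seen. The list ratio, standardised in 5 classes of desert length, replaced the planned density after density was seen to fall with length. Sequence around summits, planned, was not analysed here for want of a genome of this build, and lncRNA start windows were used instead. The other settings tried were other distances, overlap rules, strengths, equal peak numbers and linking distances.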

Additional observations from a re-analysis of the deposited data

Results flagged for a closer look

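1 late-only desert peak lay on a local background far above the others. At chr2:98665023-98665233, in the desert beside Lrrc4c, the background was 15.7 tags, 4.45 times the median of the library (3.52), and the next highest background among the late-only desert peaks was 8.90. Its pileup was 64 tags, its fold 3.90 and its −log10 q 16.0. It was singled out for the height of its local background. Peaks of both libraries flanked it, with 121 and 106 tags in M6 and 152 and 119 tags in W2, and the nearest W2 peak was 0.985 kb from its edge. It is the strongest late-only desert peak counted beside Lrrc4c.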

How the results depend on the processing

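No paired analysis was possible because each time point had 1 library and no replicate numbers. The number of late-only desert peaks was 1191 with a distance of 200 kb, 876 when every annotated gene counted, 1864 at a −log10 q of at least 5, and 520 with as many M6 as W2 peaks by −log10 q. Their share of late-only peaks was 17.0% when no W2 peak was allowed within 10 kb, and 18.3% with equal peak numbers. The share of desert M6 peaks without a counterpart was 93.4% at a −log10 q of at least 5, 87.5% with equal numbers by −log10 q and 89.8% by fold. At gene ends it was 52.2%, 26.0% and 28.7%, so deserts stood above gene ends under all 3. Grouped peaks made up 25.1% at a linking distance of 20 kb and 56.1% at 100 kb. Of 63 alternative list ratios, 61 lay within the interval given for the list, and 6 of 22 lists fell on the other side of 1 under some alternative. The count of 61 shows little about stability. The alternatives reuse the same peaks, and some intervals are wide, such as 0.0119 to 2.62 for leukocyte genes. Of 15 alternative medians of strength, background or width, 9 moved little. Alternatives on summit sequence were not run. Depth limits the weak end: the lists reach down to 12 tags in W2 and 10 in M6, and places with fewer tags are outside them.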

Other observations

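The 141 W2 desert peaks without an M6 counterpart were weaker than the W2 desert peaks with one. Their median pileup was 18 tags against 20.0, their median −log10 q 5.11 against 6.27, and none was 800 bp or wider. Of them, 37 (26.2%, 19.2 to 34.3%) lay in lncRNA bodies, a share whose interval overlaps that of the shared desert peaks. Pseudogenes covered 1.05% of the desert length, X and Y included, and held 17 late-only desert peaks (0.594%, 0.346 to 0.949%).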
